A study of Arabidopsis thaliana with 12 samples.

Results

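A group of 67 Arabidopsis thaliana genes is described whose RNA in the shoot apex moved one way over the first 2 long days and back over the next 2. The genes were chosen from the deposited log2 expression values by a rule on the day means of 4 genotypes, among the 2598 genes that had a probe set matched to them alone and a mean log2 level above 3.56. A member's day 2 mean differed from its day 0 mean by at least 0.3, its day 4 mean differed from its day 2 mean by at least 0.2 in the opposite direction, and the sign of day 2 minus day 0 was shared by all 4 genotypes. Loci AT4G00005 to AT4G02999, the segment of chromosome 4 around FRI, were left out by the rule, as were several gene families and single genes recognised by their symbols. Of 2734 such probe sets, 74 met the sizes and the sign, 6 of these were left out by name or segment (TBL26, AT4G01130, AT4G02360, UGT87A2, BGLU15 and HEME2), and 68 remained. They comprise 37 probe sets of 36 genes with a day 2 peak, which is 1.35% of the 2734, and 31 probe sets of 31 genes with a day 2 dip, which is 1.13%. Because the day differences chose the members, they are given below as values with their SD over the 4 genotypes, without a test.

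Apices came from plants raised for 30 days at 21 °C in short days (9 h light, 15 h dark) and then transferred to long days (16 h light, 8 h dark), and RNA was measured on 1 one-colour array per genotype on days 0, 2 and 4 after the transfer, 12 arrays in all. All 4 genotypes share the Columbia background. Wild-type Col-0, with the Col-0 alleles of the flowering regulators FRI (FRIGIDA) and FLC (FLOWERING LOCUS C), is written friCol-FLC, and the same line with the FLC deletion flc-3 is friCol-flc3. FRISf2-FLC has an active FRI allele introgressed from accession San Feliu-2 (Sf-2) beside the Col-0 FLC, and FRISf2-flc3 combines the Sf-2 FRI with flc-3. Day 0 is the end of the short days, and there was no array of plants kept in short days beyond it, so 2 or 4 days of long days cannot be told apart from 2 or 4 days of growth or from the harvest occasion. The labels do not state how many apices went into a sample or at which hour they were cut, and an introgressed allele can bring linked Sf-2 sequence with it. No genotype and day had a replicate, so every SD below is over 4 genotypes, and fewer cells of a type cannot be told apart from less RNA per cell.

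A shoot apex holds the meristem and the youngest leaves, and long days bring Arabidopsis to flower through a signal made in the leaves and carried to the apex. FRI raises the RNA of FLC, a MADS-box repressor of flowering, so the genotype with both active FRI and intact FLC is the late one of such a set. The peaks include 5 genes of class III peroxidases, secreted heme enzymes that use hydrogen peroxide to oxidise phenolic compounds in the wall and can both cross-link and loosen it. The dips include genes for RNA handling, protein synthesis and protein modification, which act in every growing cell. Roles of genes that carry only a locus number are general background, since the annotation used here gives no product names.

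No probe set was matched to FRI or FLC alone, so the labels could not be checked on the targeted genes. Among apex markers, PHV, a polarity regulator of young organs, was at 8.20 (mean log2), and the meristem gene UFO at 3.59, just above the floor. The organ-polarity gene YAB3 was at 9.02 and 8.14 on 2 of its 3 probe sets and below the floor, at 2.61, on the other. AMS, an anther regulator, was also below the floor, at 2.84. The lists of mature leaf, trichome, vascular and root markers had no single-gene probe set, so RNA of those tissues was not checked. The array of FRISf2-flc3 on day 2 stood apart from the other 11: its BioB hybridisation control was at 9.53 against 7.13 to 7.79, its GAPDH 3′ minus 5′ difference was 1.36 against 0.765 to 1.16, and its residual SD after genotype and day was 0.165 against 0.0969 to 0.132. Its part in the results was not tested beyond the values given with and without it. With that array left out, 30 of the 37 peaks and 18 of the 31 dips still met the rule, and with the whole genotype left out 29 and 20 did. The peaks that no longer met it without the array were AT1G03746, AT1G09500, AT2G34990, AT2G47010, GR1, PR-1-LIKE and SAPX, and the dips were AT2G14520, AT2G41620, AT3G46920, AT4G22720, AT4G25710, AT4G27130, AT4G35840, AT4G38050, AT4G38550, BSH, ECS1, PRH75 and SCPL49.

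The median peak was 0.51 higher on day 2 than on day 0, with a range of 0.31 to 1.5 over the 37 probe sets, and its day 4 minus day 2 difference had a median of -0.40 and a range of -1.68 to -0.20. Over all 2734 probe sets the corresponding medians were -0.00 and 0.04. The rule asked for a shared sign only of the first step; the second step was downward in all 4 genotypes for 26 peaks, in 3 for 9 and in 2 for 2, and 8.16% of the 2734 probe sets had a downward second step in all 4. All 4 day 2 arrays lay above all 4 day 0 arrays for 26 peaks (7.06% of the 2734), above all 4 day 4 arrays for 12 (2.82%) and above both for 8 (0.585%). These counts follow from the selection and are no test of it. On day 4 the mean was within 0.1 of day 0 for 10 peaks, below it by more for 7 and above it by more for 20, so most peaks were partial returns.

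The dips were smaller. Their day 2 minus day 0 difference had a median of -0.41 and ran from -1.10 to -0.31, and their day 4 minus day 2 difference had a median of 0.34 and ran from 0.20 to 0.69. The second step was upward in all 4 genotypes for 25 dips and in 3 for 6, against 15.5% of the 2734 probe sets with an upward second step in all 4. All day 2 arrays lay below all day 0 arrays for 26 dips (6.91% of the 2734), below all day 4 arrays for 16 (6.84%) and below both for 15 (1.17%). On day 4 the mean was within 0.1 of day 0 for 15 dips and still below it by more than that for 16, and for 0 dips did it exceed day 0 by more than 0.1. Dips therefore ended within 0.1 of the day 0 level or below it, whereas 7 peaks ended past their starting level by more than that.

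**Figure D1:**
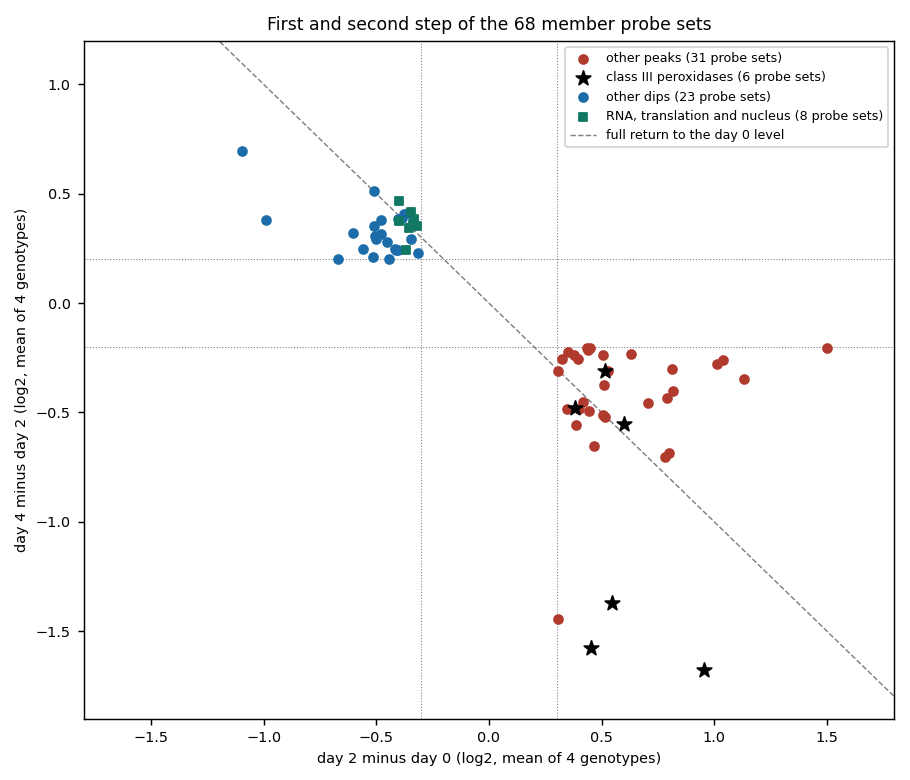
Each point is 1 of the 68 member probe sets, with day 2 minus day 0 on the horizontal axis and day 4 minus day 2 on the vertical axis, both as log2 means of 4 genotypes; dotted lines mark the thresholds 0.3 and 0.2 and the dashed line a full return to day 0. Most peaks lie above the dashed line, and AT4G36430 reaches -1.68 on the vertical axis.

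Class III peroxidases formed the largest of the families counted among the peaks, with 5 genes and 6 probe sets. AT4G36430 gave 5.25, 5.78, 5.67 and 5.60 on day 0, 6.70, 6.49, 6.47 and 6.47 on day 2 and 4.87, 5.38, 4.62 and 4.53 on day 4, in the order friCol-FLC, friCol-flc3, FRISf2-FLC and FRISf2-flc3, which every set of 4 values below follows. All 4 day 2 arrays of this secreted peroxidase lay above every day 0 array, and all 4 day 4 arrays lay below every day 2 array. The first step was 0.96 (1.94-fold, SD 0.34, n = 4 genotypes) and the second -1.68 (3.2-fold, SD 0.39), so day 4 ended -0.72 from day 0 on the log2 scale. AT2G18150, a second secreted peroxidase, gave 6.95, 7.30, 7.44 and 7.06 on day 0, 7.79, 7.48, 8.04 and 7.63 on day 2 and 6.55, 6.50, 6.21 and 6.20 on day 4. Its day 2 arrays were likewise above all day 0 and all day 4 arrays, by a small margin over day 0, with steps of 0.55 (SD 0.28) and -1.37 (SD 0.36).

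The peroxidase gene AT2G38380 gave 5.53, 5.89, 6.26 and 5.73 on day 0, 6.69, 5.91, 6.85 and 5.78 on day 2 and 5.21, 4.96, 4.41 and 4.35 on day 4. Day 4 was low in every genotype, but the first step was marked only in friCol-FLC and FRISf2-FLC, the genotypes with intact FLC, where it was 1.16 and 0.59; in friCol-flc3 and FRISf2-flc3 it was 0.02 and 0.05. The mean steps were 0.45 (SD 0.54) and -1.58 (SD 0.62). A second probe set of the same gene, outside the rule because its first step did not share 1 sign, had day means of 7.38, 8.00 and 5.72, with steps of 0.62 and -2.27. Both probe sets of AT2G38380 thus had the low day 4 level. The peak probe set is of a type (suffix s) whose sequence can match more than 1 transcript, so related genes such as its neighbour AT2G38390, with steps of -0.12 and -1.14, cannot be told apart from it with certainty. The peak probe set of AT5G64120 and the AT3G21770 probe set with the smaller steps carry the same suffix, so this limit holds for them too. It also holds for the member probe sets of AT1G09500, TOPP7 and AT2G45820 described below.

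AT3G21770 was the only gene with 2 member probe sets. The one with the larger steps gave 9.29, 8.89, 9.24 and 9.26 on day 0, 9.71, 9.72, 9.58 and 10.07 on day 2 and 9.33, 9.29, 9.09 and 9.14 on day 4, with steps of 0.60 (SD 0.26) and -0.55 (SD 0.25). Its day 2 arrays stood above all day 0 and day 4 arrays, and FRISf2-flc3 had the highest of them. The other probe set gave 5.97, 5.59, 5.83 and 5.95 on day 0, 6.50, 6.42, 6.36 and 6.10 on day 2 and 6.13, 6.10, 5.94 and 5.98 on day 4, with steps of 0.52 and -0.31, and there FRISf2-flc3 had the lowest day 2 value. The 2 probe sets of AT3G21770 share the peak and differ on the genotype that shows most of it. AT5G64120, the fifth peroxidase gene, gave 5.57, 5.42, 4.95 and 5.22 on day 0, 6.08, 5.82, 5.47 and 5.32 on day 2 and 5.31, 5.24, 5.0 and 5.22 on day 4, with steps of 0.38 (SD 0.20) and -0.48 (SD 0.28). In FRISf2-flc3 this gene hardly moved, at 5.22, 5.32 and 5.22.

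Among all 32 peroxidase probe sets above the floor (29 genes), 6 were peaks and 0 were dips, beside 1.35% and 1.13% of all 2734 probe sets. The first step was upward for 19 of the 32 and the second downward for 25, with medians of 0.11 and -0.15, and 14 went up and then down. The family was put together after the values were seen, so these are counts with no test. Other peroxidases went other ways: AT2G37130 had steps of -0.79 and -0.39, and AT4G37520 had steps of -0.65 and -0.92, lower on each day than the one before. The number of peroxidase genes among the peaks was 5 both with and without the FRISf2-flc3 day 2 array.

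**Figure D2:**
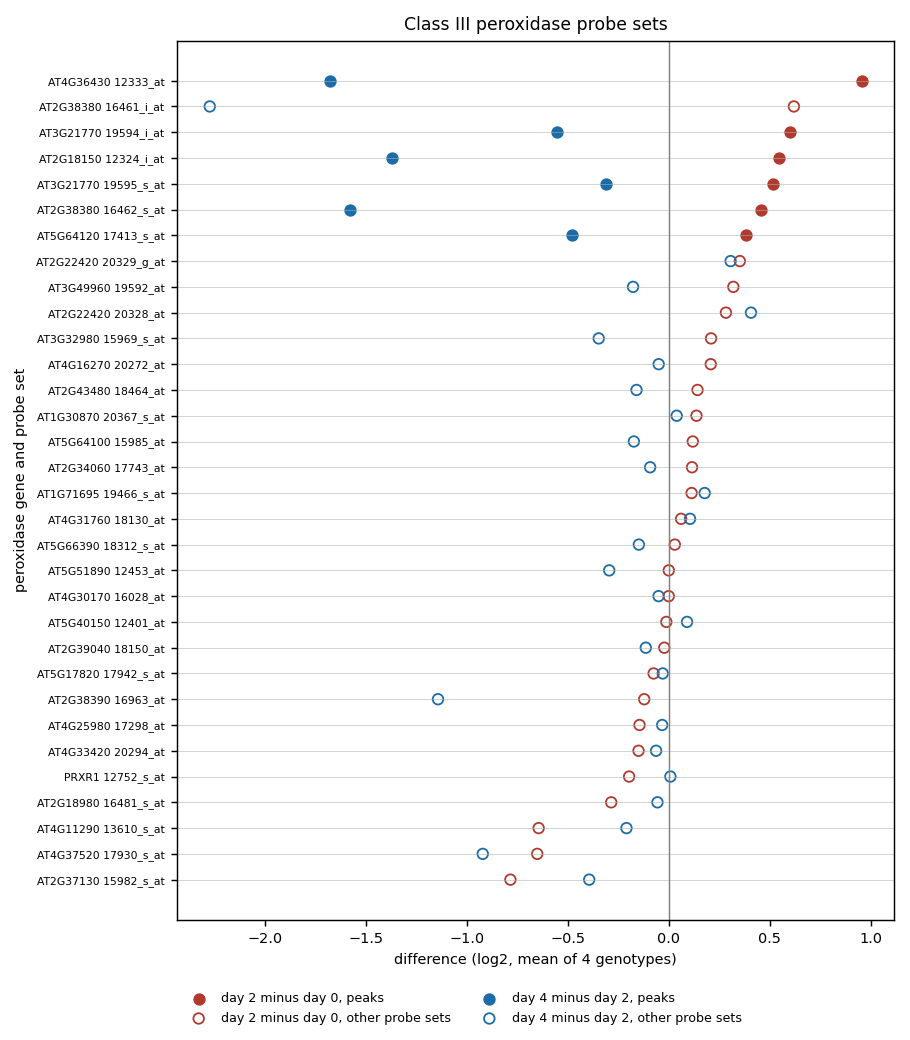
Each row is 1 of 32 class III peroxidase probe sets, ordered by day 2 minus day 0; red circles give day 2 minus day 0 and blue circles day 4 minus day 2, in log2 means of 4 genotypes, filled for the 6 peak probe sets. The second step is to the left of 0 for 25 of the 32, also among probe sets whose first step was not upward.

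Other genes of wall enzymes and secreted structural proteins accounted for 6 peaks, a grouping made after the values were seen and with no share over all probe sets. GH9B8, an endoglucanase of the family that cuts wall glucans, gave 6.74, 6.31, 6.44 and 6.49 on day 0, 6.86, 6.77, 7.10 and 7.11 on day 2 and 6.43, 6.30, 6.54 and 5.95 on day 4. Its steps were 0.46 (SD 0.25) and -0.65 (SD 0.34), and each day 2 array was above all day 0 and day 4 arrays. Of the 7 GH9 probe sets above the floor, GH9B8 was the 1 member; GH9B13 had steps of 0.57 and -0.32 without a shared sign, and GH9B6 had 0.26 and -0.29, under the size. AT1G60590, a pectin lyase-like protein, gave 5.65, 5.69, 5.78 and 5.74 on day 0, 6.66, 6.90, 6.80 and 7.01 on day 2 and 6.63, 6.49, 6.62 and 6.25 on day 4. It had the most even first step of the wall genes, 1.13 (2.19-fold, SD 0.14), and kept most of it, with a second step of -0.35 (SD 0.32).

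AT1G04660, a glycine-rich protein, had the largest first step of all peaks and the smallest second one. Its values were 5.59, 5.45, 5.71 and 5.70 on day 0, 7.37, 7.32, 6.84 and 6.91 on day 2 and 6.87, 7.12, 6.74 and 6.91 on day 4, with steps of 1.5 (2.83-fold, SD 0.38) and -0.20 (SD 0.22), and in FRISf2-flc3 day 4 equalled day 2 to 2 decimals. Its mean profile therefore kept most of the day 2 level, with a day 4 mean 1.30 above day 0. AT2G22510, a hydroxyproline-rich glycoprotein, gave 6.51, 6.65, 6.99 and 6.42 on day 0, 7.06, 7.46, 7.15 and 6.68 on day 2 and 6.84, 6.39, 6.79 and 6.36 on day 4, with day ranges that overlap and the highest value in friCol-flc3 on day 2. The TBL genes, of a family whose known members add acetyl groups to wall polysaccharides, supplied TBL34 with steps of 0.39 and -0.56 and TBL37 with steps of 0.63 and -0.23. TBL26, left out because its locus lies in the excluded segment, had 0.36 and -0.25, and the other 6 TBL probe sets above the floor did not meet the rule.

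A further 4 peaks encode defence-type proteins, a grouping also made after the values were seen and with no share over all probe sets; each had a downward second step in all 4 genotypes. The defence and wounding list had 0 members among its 4 eligible probe sets. AT2G34930, a leucine-rich repeat protein, gave 3.74, 3.60, 3.76 and 3.91 on day 0, 4.70, 4.37, 4.27 and 4.49 on day 2 and 3.97, 4.02, 4.21 and 3.81 on day 4, with steps of 0.70 (SD 0.20) and -0.46 (SD 0.31); its day 2 arrays lay above all others. AT3G15356, a legume-type lectin, gave 7.14, 6.65, 7.09 and 6.40 on day 0, 7.79, 6.88, 7.39 and 6.44 on day 2 and 5.40, 5.21, 5.94 and 6.17 on day 4. Its first step of 0.31 (SD 0.25) was at the threshold, while the second was -1.45 (SD 0.88), so it was mainly low on day 4, least so in FRISf2-flc3. AT2G43620, of the chitinase family, gave 4.79, 5.04, 4.60 and 4.86 on day 0, 5.93, 5.25, 4.90 and 4.88 on day 2 and 4.97, 4.95, 4.58 and 4.65 on day 4, and its peak was mostly that of the single friCol-FLC array. PR-1-LIKE, a relative of a pathogenesis marker, was highest on day 2 in friCol-flc3 and FRISf2-flc3, at 5.11 and 5.28, against 4.56 and 4.72 in the genotypes with intact FLC. Its highest value came from the array that stood apart, and it missed the rule without it.

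**Figure D3:**
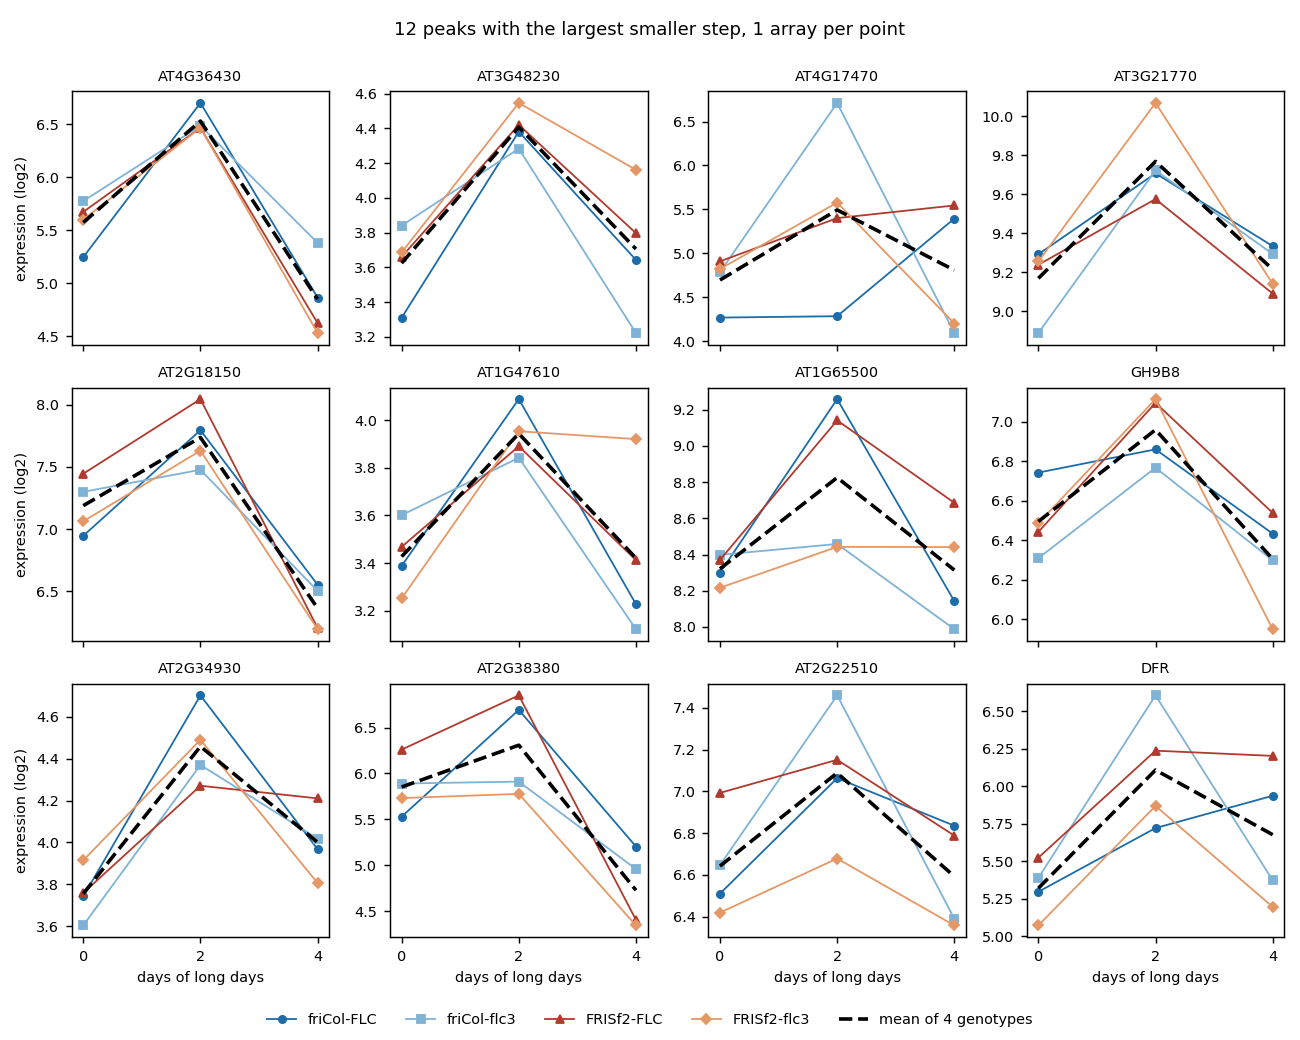
The 12 peak probe sets with the largest smaller step are drawn with 1 point per array, days of long days on the horizontal axis and log2 expression on the vertical axis, colours and symbols for the 4 genotypes, and a dashed line for their mean. AT4G36430 and AT2G18150 keep the shape in every genotype, whereas AT4G17470 does so in friCol-flc3 and FRISf2-flc3 and not in friCol-FLC and FRISf2-FLC.

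A pair of antioxidant enzymes had small peaks. GR1, a glutathione reductase, gave 7.10, 7.08, 7.40 and 7.11 on day 0, 7.58, 7.47, 7.70 and 7.68 on day 2 and 7.36, 7.27, 7.55 and 7.42 on day 4, with steps of 0.44 (SD 0.11) and -0.21 (SD 0.044). Its second step had the smallest SD among the peaks named here, and day 4 stayed 0.23 above day 0. SAPX, the ascorbate peroxidase of the chloroplast stroma, gave 5.80, 6.16, 6.40 and 6.33 on day 0, 6.54, 6.54, 6.64 and 6.74 on day 2 and 6.55, 6.28, 6.42 and 6.35 on day 4, with steps of 0.44 and -0.21, and friCol-FLC did not come down on day 4. Both genes lost membership without the FRISf2-flc3 day 2 array. TAPX, the thylakoid form, was no member on either probe set, with first steps of 0.13 and -0.03.

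DFR, which makes the precursors of anthocyanins, was the only member from 13 lists of genes for processes such as photoperiod, cell division, wall growth, auxin, cold and photosynthesis. The lists hold 67 eligible probe sets, so the 1 member is 1.49%, beside 2.49% of all 2734. They were matched on symbols and synonyms, so they can hold genes outside the named process. The chaperone list held only BRK1, and UGT80B1 in the flavonoid list could not be a member because the rule leaves out UGT symbols. Most lists were too thinly measured to say more: ribosome and translation had no probe set, and 6 lists, flavonoids included, had 1 to 3. DFR gave 5.30, 5.39, 5.52 and 5.07 on day 0, 5.72, 6.61, 6.24 and 5.87 on day 2 and 5.94, 5.37, 6.20 and 5.20 on day 4. The first step of 0.79 (1.73-fold, SD 0.33) was shared by all genotypes, but the second, -0.43 (SD 0.65), was not: friCol-flc3 and FRISf2-flc3 returned near their day 0 level, FRISf2-FLC stayed up and friCol-FLC was higher still on day 4. CHI, an earlier enzyme of the same pathway, had steps of 0.33 and -0.76 and missed the rule on the shared sign. Of the lists without a member, clock and photoperiod was represented only by GI, a clock-linked promoter of flowering, whose 3 probe sets above the floor had steps of -0.95 to -1.21 and then -0.43 to -0.44, lower on each day than on the one before. AT1G09500, related to cinnamyl alcohol dehydrogenases, had steps of 0.32 and -0.25 on its member probe set and 0.29 and -0.12 on another, which missed both sizes. AT2G40230, an acyltransferase, had 0.40 and -0.26.

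A pair of hydrolases of the alpha/beta fold were the 2 peaks whose second step was downward in only 2 genotypes. AT4G17470 gave 4.27, 4.78, 4.91 and 4.82 on day 0, 4.28, 6.71, 5.40 and 5.58 on day 2 and 5.39, 4.09, 5.54 and 4.20 on day 4, with steps of 0.80 (SD 0.81) and -0.69 (SD 1.65). Each SD was larger than its mean step. friCol-flc3 and FRISf2-flc3 peaked on day 2, while friCol-FLC and FRISf2-FLC were highest on day 4, so the mean peak of AT4G17470 came from the flc-3 genotypes. AT2G39420 gave 4.82, 4.73, 5.01 and 4.80 on day 0, 6.19, 5.94, 5.37 and 5.13 on day 2 and 5.17, 5.19, 5.41 and 5.25 on day 4: its peak came from friCol-FLC and friCol-flc3, and FRISf2-FLC and FRISf2-flc3 were no lower on day 4 than on day 2. AT2G47780, of the family of lipid droplet proteins, had a more even first step of 1.01 (SD 0.32) and a second of -0.28 (SD 0.18).

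Regulatory proteins among the peaks were few. AT1G47610, a WD40 repeat protein, gave 3.39, 3.60, 3.47 and 3.25 on day 0, 4.09, 3.84, 3.89 and 3.95 on day 2 and 3.23, 3.12, 3.41 and 3.92 on day 4, near the floor, and FRISf2-flc3 barely came down on day 4. LSH9, of the plant family of ALOG-domain nuclear proteins, gave 6.57, 6.58, 6.57 and 6.75 on day 0, 7.22, 6.89, 7.18 and 7.21 on day 2 and 6.81, 6.72, 7.13 and 6.89 on day 4, with day 2 above day 0 in all arrays. AT1G70000, a MYB-like protein, gave 5.80, 5.55, 5.67 and 5.98 on day 0, 6.25, 6.28, 6.26 and 6.32 on day 2 and 5.76, 5.88, 6.07 and 6.17 on day 4, and its day 2 arrays lay above all others with a spread of less than 0.1. AT2G34990, a RING-type protein, had steps of 0.31 and -0.31, the smallest first step of any peak.

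The remaining 9 peaks have mostly no role that can be given with certainty. AT3G48230 gave 3.31, 3.84, 3.66 and 3.69 on day 0, 4.38, 4.28, 4.42 and 4.55 on day 2 and 3.64, 3.22, 3.80 and 4.16 on day 4, with steps of 0.78 (SD 0.26) and -0.70 (SD 0.28), and all its day 2 arrays were above all others. AT1G65500 gave 8.30, 8.40, 8.37 and 8.22 on day 0, 9.26, 8.46, 9.14 and 8.44 on day 2 and 8.14, 7.99, 8.69 and 8.44 on day 4. Its first step was 0.96 in friCol-FLC and 0.77 in FRISf2-FLC, and 0.06 in friCol-flc3 and 0.23 in FRISf2-flc3. AT1G03746, annotated as a small nucleolar RNA, had its highest value, 8.93, on the FRISf2-flc3 day 2 array and did not meet the rule without it. The others were AT1G12080, AT2G47010, AT2G34460, AT4G25930, AT4G28080 and AT4G32780, and AT4G25930 had almost the same excursion in each genotype, from 0.36 to 0.45, where the excursion is day 2 minus the mean of days 0 and 4. The first steps of the 9 ran from 0.35 to 1.04 and the second from -0.70 to -0.21.

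The dips are described by role in groups put together after their values were seen; with no product names in the annotation, the share of each role among all 2734 probe sets was not computed. A set of 8 dips have roles in RNA handling, translation or the nucleus. AT4G27130, a translation initiation factor of the SUI type, gave 9.40, 9.55, 9.45 and 9.37 on day 0, 9.20, 9.05, 9.18 and 8.75 on day 2 and 9.54, 9.31, 9.64 and 9.54 on day 4, with steps of -0.40 (SD 0.20) and 0.47 (SD 0.23). Every day 2 array was below every array of the other days, and the lowest was FRISf2-flc3. AT5G27120, a nucleolar protein of the particles that modify ribosomal RNA, gave 9.14, 9.33, 9.28 and 9.27 on day 0, 9.11, 8.78, 8.92 and 8.63 on day 2 and 9.31, 9.26, 9.05 and 9.32 on day 4, where friCol-FLC hardly moved on the first step. AT2G41620, a nuclear pore component, gave 6.78, 6.72, 6.65 and 6.75 on day 0, 6.49, 6.60, 6.27 and 6.14 on day 2 and 6.75, 6.75, 6.82 and 6.86 on day 4, again lowest in FRISf2-flc3. AT2G36930, a zinc finger protein, was the most even, with 9.32, 9.37, 9.34 and 9.12 on day 0, 8.97, 8.88, 9.05 and 8.83 on day 2 and 9.25, 9.13, 9.38 and 9.33 on day 4, steps of -0.36 (SD 0.092) and 0.34 (SD 0.11), and excursions between -0.40 and -0.31.

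The rest of this set were AT4G07950, an RNA polymerase subunit, AT4G22720, of a family of tRNA-modifying proteins, PRH75, an RNA helicase of the nucleus, and BSH, an SNF5-type part of chromatin remodelling complexes. Their first steps were -0.34, -0.33, -0.37 and -0.32, and their second 0.36, 0.38, 0.24 and 0.35. In 7 of the 8 genes the deepest excursion was that of FRISf2-flc3, with AT4G07950 as the exception. The same share over all probe sets was not computed, so this count is not read as a trait of the set. The median excursion of the 8 was -0.35 over all genotypes, -0.62 in FRISf2-flc3 and -0.29 with that genotype left out. Of these genes AT4G27130, AT2G41620, AT4G22720, PRH75 and BSH did not meet the rule without the FRISf2-flc3 day 2 array, and AT5G27120, AT2G36930 and AT4G07950 did.

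A further 6 dips concern protein folding, modification or turnover. AT2G21130, a cyclophilin, which helps proteins fold by turning proline bonds, had the largest dip: 7.61, 8.58, 7.91 and 7.96 on day 0, 7.34, 7.12, 6.16 and 7.05 on day 2 and 8.19, 7.52, 7.02 and 7.71 on day 4. Its first step was -1.10 (2.14-fold, SD 0.65) and its second 0.69 (1.62-fold, SD 0.21). The first step differed widely, from -0.26 in friCol-FLC to -1.75 in FRISf2-FLC, but day 2 was the lowest day in every genotype. TOPP7, a catalytic subunit of type 1 protein phosphatase, gave 7.21, 7.17, 7.23 and 7.32 on day 0, 6.83, 6.91, 7.05 and 6.63 on day 2 and 7.26, 7.07, 7.36 and 7.36 on day 4, with day 2 below all other arrays; TOPP8, its 1 relative above the floor, had steps of -0.16 and 0.27. AT3G46920, a protein kinase, gave 4.48, 4.39, 4.33 and 4.30 on day 0, 4.19, 4.11, 4.32 and 3.34 on day 2 and 4.31, 4.31, 4.47 and 4.41 on day 4, and its dip was mostly that of the FRISf2-flc3 day 2 array. AT4G25710, an F-box protein with kelch repeats, gave 6.73, 6.79, 6.94 and 6.70 on day 0, 6.53, 6.31, 6.67 and 6.03 on day 2 and 6.83, 6.57, 6.83 and 6.85 on day 4, also lowest on that array; both AT3G46920 and AT4G25710 missed the rule without it, as did AT4G35840, a RING-type protein with steps of -0.52 and 0.21. The remaining member of this set was AT1G51200, a zinc finger protein of the A20/AN1 type with steps of -0.40 and 0.24.

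Stress and hormone-linked dips included DI19, a zinc finger protein of drought responses, with 10.05, 10.15, 10.09 and 10.17 on day 0, 9.72, 9.49, 9.74 and 9.49 on day 2 and 9.92, 9.89, 9.98 and 9.88 on day 4. Its day 2 arrays were below all others, with steps of -0.51 (SD 0.19) and 0.31 (SD 0.098). HAT2, a homeodomain-leucine zipper protein of auxin responses, gave 7.76, 7.75, 7.71 and 7.88 on day 0, 7.30, 7.32, 7.49 and 7.18 on day 2 and 7.75, 7.54, 7.43 and 7.69 on day 4, with steps of -0.45 and 0.28; FRISf2-FLC did not return on day 4. AT2G45820, a remorin of the plasma membrane, had steps of -0.42 (SD 0.14) and 0.25 (SD 0.061) and day 2 below all other arrays. ECS1, a wall-associated protein, gave 12.27, 12.09, 12.21 and 12.15 on day 0, 12.21, 11.99, 11.58 and 11.49 on day 2 and 12.06, 12.25, 12.38 and 12.23 on day 4. Its dip was deepest in FRISf2-FLC and FRISf2-flc3 and small in friCol-flc3, while friCol-FLC went down on both steps. It missed the rule without the day 2 array of FRISf2-flc3 and also without that of FRISf2-FLC.

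**Figure D4:**
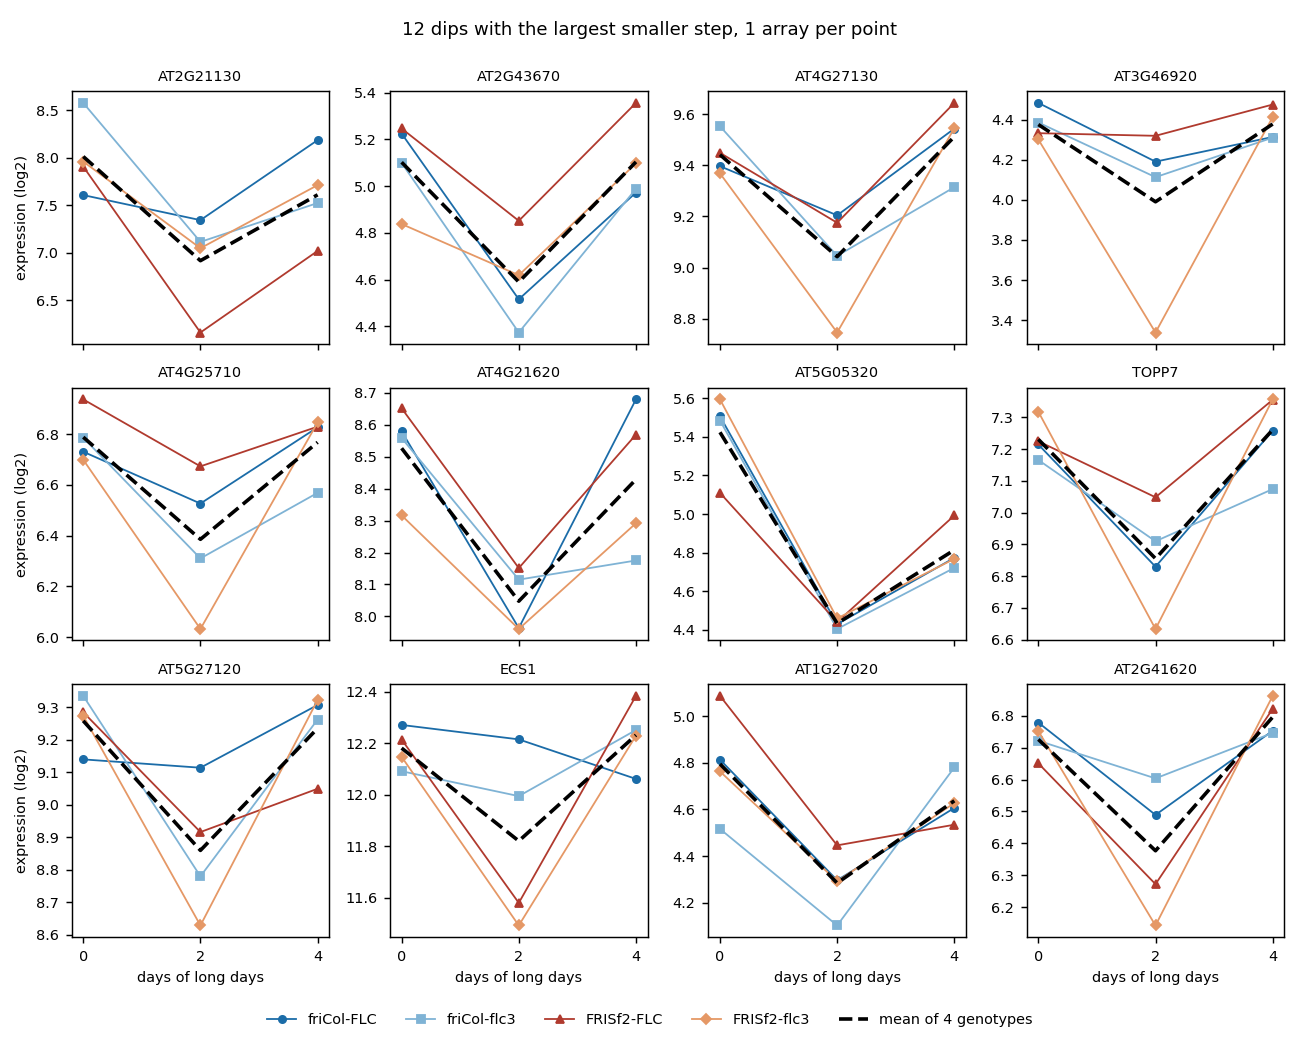
The 12 dip probe sets with the largest smaller step are drawn as for the peaks, with 1 point per array and a dashed line for the mean of 4 genotypes in log2. FRISf2-flc3 is the lowest day 2 point in panels such as AT3G46920 and AT4G27130, whereas AT5G05320 dips by similar amounts in all 4 genotypes. AT1G27020 falls by similar amounts on the first step, but FRISf2-FLC hardly rises again on day 4.

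Metabolic and transport genes made up 8 dips. AT5G05320, an oxidoreductase of the FAD-binding type, had the dip whose excursion varied least for its size: 5.51, 5.48, 5.11 and 5.59 on day 0, 4.43, 4.40, 4.44 and 4.46 on day 2 and 4.77, 4.72, 4.99 and 4.77 on day 4. Its day 2 values lay within 0.1 of each other, the steps were -0.99 (1.99-fold, SD 0.22) and 0.38 (SD 0.12), and the excursions ran from -0.72 to -0.61. On day 4 it was still -0.61 from day 0. AT2G43670, of a family with a carbohydrate-binding domain, gave 5.22, 5.10, 5.25 and 4.84 on day 0, 4.52, 4.37, 4.85 and 4.62 on day 2 and 4.97, 4.99, 5.36 and 5.10 on day 4, with steps of -0.51 and 0.51 that cancel. PWD, a dikinase of starch breakdown, gave 7.73, 8.16, 7.77 and 8.07 on day 0, 7.31, 7.57, 7.26 and 7.33 on day 2 and 7.68, 7.57, 7.67 and 7.55 on day 4, with day 2 below day 0 in all arrays; its second step was absent in friCol-flc3. SCPL49, of the serine carboxypeptidase-like family, was the dip closest to the second threshold, at 0.20. First steps of the other 4, AT5G39410, AT4G38690, AT4G38050 and AT2G14520, were -0.60, -0.35, -0.41 and -0.31, and their second steps 0.32, 0.29, 0.24 and 0.23. Of the 8, SCPL49, AT4G38050, a permease, and AT2G14520, a protein with CBS domains, missed the rule without the FRISf2-flc3 day 2 array.

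AT4G21620 and AT1G27020 were the other dips among the 12 with the largest smaller step. AT4G21620 gave 8.58, 8.56, 8.65 and 8.32 on day 0, 7.96, 8.12, 8.15 and 7.96 on day 2 and 8.68, 8.18, 8.57 and 8.29 on day 4, and AT1G27020 gave 4.81, 4.52, 5.09 and 4.76 on day 0, 4.30, 4.10, 4.45 and 4.29 on day 2 and 4.61, 4.78, 4.53 and 4.63 on day 4. Both had all day 2 arrays below all others and a dip in each genotype, and both still met the rule without the FRISf2-flc3 day 2 array. The last 3 dips, AT4G09830, AT4G37240 and AT4G38550, had first steps of -0.48, -0.50 and -0.67 and second steps of 0.32, 0.29 and 0.20, so AT4G38550 stayed low on day 4.

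The thresholds cut through a continuum. Just inside the first threshold for peaks were AT2G34990 and AT3G15356 at 0.31, and just outside were AT4G23500 at 0.29 and BETA-VPE at 0.28. On the second, AT1G04660 (-0.204) and AT2G34460 (-0.205) were inside and AT2G37900 (-0.195) and AT2G31390 (-0.193) outside. For dips, AT2G14520 (-0.313) and BSH (-0.322) were inside the first threshold and AT1G30880 (-0.299) and AT2G04940 (-0.297) outside, while SCPL49 and AT4G38550 (both 0.202) were inside the second and AT2G28710 (0.195) and AT1G64890 (0.189) outside. Members near a threshold thus differ from non-members by a few hundredths, less than the SD of most steps.

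The size of the excursion was then compared between genotypes. For peaks the median excursion was 0.53 in friCol-FLC, 0.56 in friCol-flc3, 0.41 in FRISf2-FLC and 0.37 in FRISf2-flc3, and the largest excursion fell in these genotypes for 16, 9, 4 and 8 probe sets. For dips the medians were -0.34, -0.30, -0.31 and -0.54, and the deepest excursion fell in them for 3, 3, 5 and 20 of the 31. Over all 2734 probe sets the medians were -0.01, -0.02, -0.01 and -0.05, and the SD over probe sets was 0.233, 0.243, 0.20 and 0.317, widest in FRISf2-flc3. The dips were thus deepest in the genotype whose day 2 array stood apart, and their median excursion over the other 3 genotypes was -0.31 instead of -0.39. The members were chosen on these arrays, so the medians carry no test. How often the largest or deepest excursion of all 2734 probe sets fell in each genotype was not computed. The counts by genotype are therefore not read as a trait of the members.

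**Figure D5:**
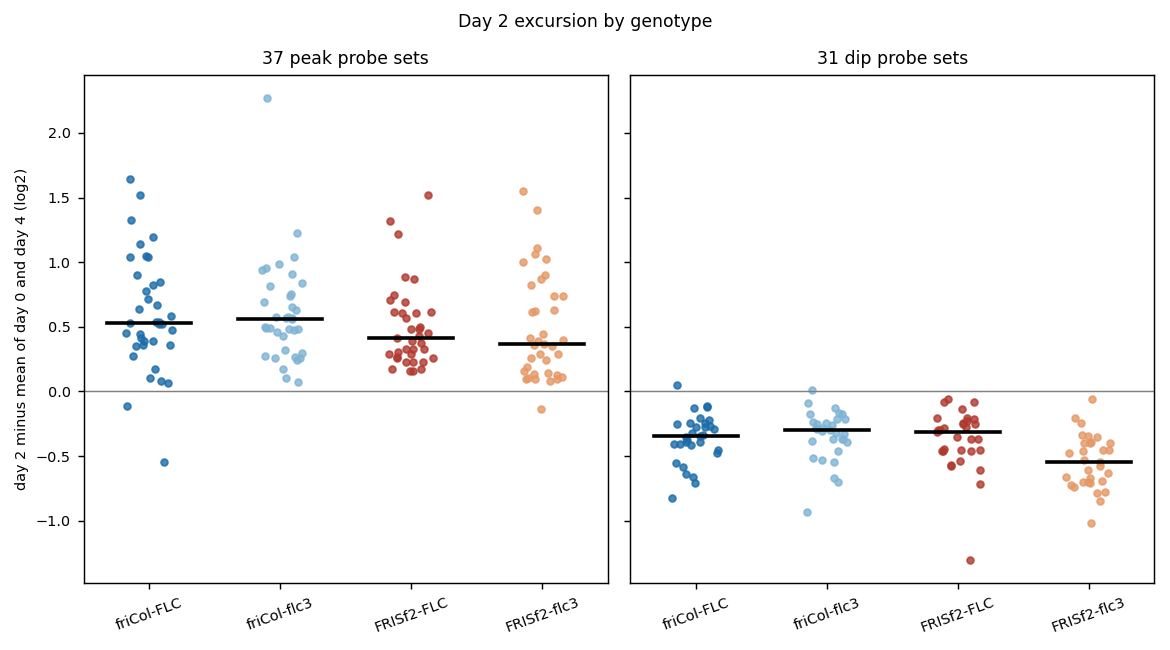
Each point is the excursion of 1 probe set in 1 genotype, day 2 minus the mean of days 0 and 4 in log2, with peaks on the left and dips on the right and a bar at the median. The dip medians are -0.34, -0.30 and -0.31 in 3 genotypes and -0.54 in FRISf2-flc3.

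Genes were also chosen on 3 genotypes and read in the fourth, whose steps that choice did not use. The 68 members were chosen on all 4 genotypes, and these sets overlap with them. Without friCol-FLC, 27 of the 40 peaks and 28 of the 58 dips were members. The shares below are therefore counts and no test of the members. Of the 40 peaks chosen without friCol-FLC, 24 (60%) went up and then down in it, against 27.1% of the 2612 eligible probe sets outside the rule's exclusions. The shares were 37 of 51 (72.5% against 26.6%) in friCol-flc3, 36 of 50 (72% against 29.9%) in FRISf2-FLC and 28 of 41 (68.3% against 30.6%) in FRISf2-flc3. Among dips, 38 of 58 (65.5% against 30.4%) went down and then up in friCol-FLC, 35 of 52 (67.3% against 35.3%) in friCol-flc3, 36 of 53 (67.9% against 31.7%) in FRISf2-FLC and 23 of 30 (76.7% against 42.3%) in FRISf2-flc3. In each genotype the share with both signs among probe sets chosen on the other 3 was above the share among all 2612, a description without a test. The median steps in the left-out genotype were smaller than the thresholds in several cases: for peaks the second step had medians of -0.21, -0.26, -0.15 and -0.10, and for dips the first step had medians of -0.20, -0.25, -0.22 and -0.44. All genotypes of a day may share a harvest, so this check does not separate day from occasion.

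Levels averaged over the 3 days were compared between genotypes with limma, fitted additively in genotype and day over 6185 probe sets and adjusted by Benjamini-Hochberg over all of them. The rule did not use these differences. The contrast of FRISf2-FLC with the other 3 genotypes called 47 probe sets (0.76%) and 0 of the 68 members; the Sf-2 against the Col FRI allele called 13 (0.21%) and 0 members; intact FLC against flc-3 called 3 (0.0485%) and 0 members. At an unadjusted p under 0.05 limma gave 11, 8 and 7 of 68 members, beside 661, 532 and 445 of the 6185. With weights for each array the first 2 comparisons called 1 member each, AT5G64120. The median difference of the peaks was 0.06, 0.04 and 0.02 and of the dips 0.06, -0.02 and 0.07, beside 0.00, -0.01 and 0.01 for all probe sets.

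The members with the lowest p were few. The peroxidase AT5G64120 was lower with the Sf-2 FRI allele by limma's estimate, with a difference of -0.37 (SE 0.084) and an adjusted p of 0.148, and in FRISf2-FLC against the others it was -0.32 (SE 0.096, adjusted p 0.196). With array weights, limma gave -0.34 (adjusted p 0.0479) and -0.38 (adjusted p 0.0231), so the call depends on the weighting. The chitinase-family gene AT2G43620 had -0.41 (SE 0.118, limma adjusted p 0.301) and AT1G12080 had 0.43 (SE 0.115, limma adjusted p 0.271) for the FRI allele. The dip gene AT2G43670 had 0.29 (SE 0.093, limma adjusted p 0.245) in FRISf2-FLC against the others, and the cyclophilin AT2G21130, of opposite sign, had -0.65 (SE 0.205, limma adjusted p 0.247). Leaving out the friCol-FLC day 0 array took AT2G21130 to -0.78 by limma and an adjusted p of 0.0268. Under every other alternative its limma adjusted p stayed above 0.05. The highest was 0.839, without the FRISf2-FLC day 2 array, where the estimate was -0.46. The RING protein AT2G34990 was the lowest for FLC, at -0.25 (SE 0.089, limma adjusted p 0.536). No member passed in the fit to all 12 arrays without weights.

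Whether any probe set had a different excursion in FRISf2-FLC was tested with limma in a model with day terms of its own, which left 4 residual degrees of freedom and rests on 1 FRISf2-FLC array per day. The test called 0 of 6185 probe sets (0%), with 154 at an unadjusted p under 0.05, and 1 with a stricter filter, a robust trend or array weights. The excursion is made of the same steps and signs that chose the members, so nothing is read from it about them.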

How the data were processed

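For each array the authors deposited a normalized log2 value for every probe set, in a range of 2.12 to 13.18. The log base was read from the deposited values; no software or normalization method is given in the sources used here. Array medians lay within 0.0604, so the values were used as deposited. Groups came from the sample titles, with 1 array per genotype and day, and precision is limited by their number. Among 8247 probe sets that were not controls, the platform annotation gave 3794 a single gene, and 3784 of these were found in the RefSeq table of TAIR10.1; LSH9 kept the annotation's symbol. No coordinates or sequences are given, since no sequence table came with the reference used here.

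The members, the gene lists and the groups of roles were chosen with earlier results of these data known. The floor of 3.56 is the 25th percentile of the mean log2 values. Named genes are the 12 peaks and 12 dips with the largest smaller step, members of the gene lists, genes with several probe sets, and those next to a threshold; members named with their role group, and relatives named as examples, were chosen after their values were seen.

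Genotypes were compared with limma 3.58.1 in R 4.3.3 (lmFit and eBayes with a trend, two-sided, threshold 0.05 after Benjamini-Hochberg adjustment), additively in genotype and day with 6 residual degrees of freedom. Each SE is thus what that model leaves over single arrays, not a spread between replicates. Day steps carry no test. The rule and the fit were tested on simulated data, with Python 3.11.15 and pandas 2.3.3 for the rule. The data simulated for the fit had independent noise in every value, so they do not speak to an array that stands apart. Alternatives were other normalizations, filters, sizes, variance models, array weights, and leaving out each array or genotype.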

Additional observations from a re-analysis of the deposited data

How the results depend on the processing

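With sizes of 0.4 and 0.3, 19 peaks and 9 dips met the rule. Leaving out 1 array gave 35 to 51 peaks and 26 to 56 dips; there were 51 dips without the friCol-FLC day 2 array and 56 without that of FRISf2-FLC. Without friCol-FLC, friCol-flc3 or FRISf2-FLC as a whole there were 58, 52 and 53 dips. The cause was not tested. Over the 12 omissions of 1 array, 18 peak and 14 dip probe sets met the rule every time. Peroxidase genes among the peaks numbered 4 to 7 over the 23 settings, a recount added after seeing the data. At the stricter sizes, 10 of 12 dips chosen without friCol-FLC (83.3%) showed both signs in it, against 30.4% of the 2612 probe sets. For FRISf2-FLC it was 15 of 17 (88.2% against 31.7%). These were the highest shares at those sizes and rest on few probe sets. The other dip shares were 75% (friCol-flc3) and 77.8% (FRISf2-flc3), and the peak shares ran from 64.7% to 80%.

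FRISf2-FLC against the others called 30 probe sets after quantile normalization, 117 with array weights and 5 to 44 with 1 array left out, the lowest without the FRISf2-FLC day 2 array; the FRI allele called 8 under a filter at the 50th percentile, 29 with array weights and 8 to 17 with 1 array left out; FLC called 5 with median centring, a robust trend or array weights and 1 to 9 with 1 array left out, the highest without the FRISf2-FLC day 0 array. The excursion of FRISf2-FLC called 1 with the stricter filter, a robust trend or array weights and 0 to 1 with 1 array left out, and could not be fitted without an array of FRISf2-FLC. Of the members, FRISf2-FLC against the others called 1 with array weights and 0 to 1 with 1 array left out, the FRI allele called 1 with array weights, and the FLC contrast called 0 under each alternative run. Directions were followed for the limma estimates of AT5G64120, AT1G12080, AT2G43620, GR1, AT2G21130 and AT2G34990, and there none was reversed. Small medians did change sign. The dip median for the FRI allele was -0.0225 in the main fit and 0.0156 without the FRISf2-flc3 day 2 array. Day was a block in the FRISf2-FLC, FRI and FLC comparisons. The planned search of promoters for motifs was not run. With 1 array per group, small steps cannot be set against a replicate spread.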

Other observations

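The shape was not confined to named genes. Among the 3447 probe sets above the floor that the annotation paired with no gene or with several, 68 met the sizes and the shared sign of a peak and 37 those of a dip. No exclusion by name or segment was applied to these. Their like among the 2734 single-gene probe sets is therefore the 74 before exclusions, which include the 5 peaks and 1 dip left out.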
